A study of Mus musculus with 7 samples.

Results

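The forkhead transcription factor genes were examined in the early mouse limb, in the apical ectodermal ridge and in the surface ectoderm beside it. Members were the non-control rows of the array whose gene name is Fox, a letter from a to s, a number and an optional final letter. The rule took 60 probes of 44 genes, out of 55681 probes of 36373 genes, and it used no measured value. One gene was listed under an older symbol, Foxf1a, and is called Foxf1 here.

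Forkhead (FOX) proteins are transcription factors that share a winged-helix DNA-binding domain and recognise short sites around the core TGTTTAC. Some act as pioneer factors that open closed chromatin, others are held out of the nucleus by growth factor signalling, and the lettered subfamilies have separate roles in endoderm, mesenchyme, neural crest, epithelia and dividing cells. In the limb and face, members of the FOXC, FOXD and FOXF subfamilies are best known from mesenchyme, and in the ectoderm FOX genes are known from placodes, hair follicles and ionocyte-like cells.

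All embryos were of the C57/Bl6 strain at embryonic day 11.5, with no mutation or treatment named in the labels. The apical ectodermal ridge (AER) is a band of tall epithelium at the edge of the limb bud that keeps the mesenchyme below it growing; it was microdissected from forelimbs and measured on 3 arrays. The comparison tissue, measured on 4 arrays, was surface ectoderm taken from the posterior part of the limb. Each array carried RNA pooled from 2 to 3 mice, and 75 ng of it was labelled, so errors and p-values reflect variation between pools, which the labels do not tie to separate litters.

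The 75th percentile of an array's signal was 341 to 563 intensity units in the AER group and 257 to 444 in the ectoderm group, and no forkhead probe was saturated. Levels below are log2 values relative to that percentile, so 0 is the 75th percentile of the array and a difference of 1 is a doubling of signal. A probe's level depends on how well it hybridises, so levels are compared between arrays and not between genes. Of all genes tested, 7.03% were higher and 8.65% lower in AER, the shares to set beside the counts that follow. Of the known AER genes, 14 of 15 tested were higher in AER and none was lower. Pan-epithelial genes were also higher in AER (16 of 20 tested, with a median difference of 1.74). The ectoderm arrays held more signal from genes of other tissues: 15 of 20 limb mesenchyme genes were lower in AER (median difference -1.57), as were 9 of 9 muscle progenitor genes (median difference -5.31). The mesenchyme genes summed to 8.04 to 8.24 on the AER arrays and to 9.09 to 9.64 on the ectoderm arrays (log2 of the summed level), and the muscle genes to -0.87 to 1.92 and to 5.85 to 7.11. Kera, Osr2 and Des, markers of connective tissue, mesenchyme and muscle, were at background on all 3 AER arrays. They were 2 of the 20 mesenchyme genes and 1 of the 9 muscle genes. All other tested genes of these lists were above background on at least 1 AER array. The part of these tissues in the forkhead differences below was not tested.

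**Figure D1:**
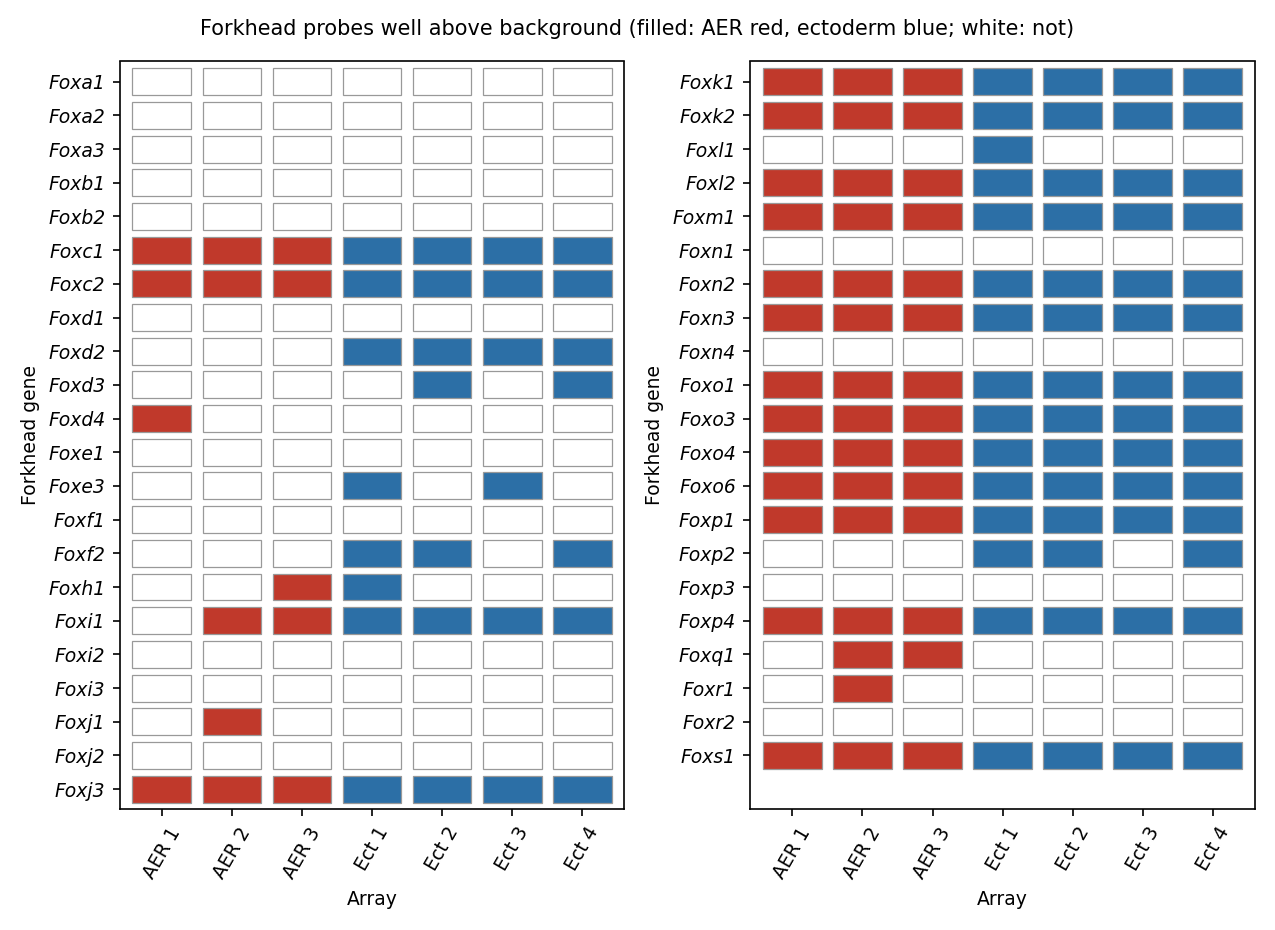
Detection of 43 of the 44 forkhead genes, one row per gene in alphabetical order over 2 panels, with the 3 AER arrays and the 4 ectoderm arrays as columns. A filled box means that the gene's best detected probe was well above background on that array; 16 of the genes shown are filled on all 7 arrays and 15 on none.

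The scanner software's flag for a signal well above background showed which forkhead genes could be read in these tissues. Of the 44 genes, 16 were above background on all 7 arrays, which is 36.4%, against 49.7% of all genes on the array. They were Foxc1, Foxc2, Foxj3, Foxk1, Foxk2, Foxl2, Foxm1, Foxn2, Foxn3, Foxo1, Foxo3, Foxo4, Foxo6, Foxp1, Foxp4 and Foxs1. This group holds every FOXK, FOXM and FOXO gene on the array, but only some of the FOXN, FOXJ and FOXP genes. A further 16 genes (36.4%, against 33.4% of all genes) were above background on no array. They included the pioneer factors of endoderm Foxa1, Foxa2 and Foxa3, the regulatory T cell factor Foxp3 and the thymus and hair factor Foxn1. Foxb1, Foxb2, Foxd1, Foxe1, Foxf1, Foxi2, Foxi3, Foxj2, Foxn4 and Foxr2 were also in that class. A probe at background gives only an upper limit on its signal, so these genes were not detectable here and are not shown to be silent.

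The remaining 12 genes were above background on some arrays. Of these, 6 were above background on ectoderm arrays alone (Foxd2 on 4, Foxf2 and Foxp2 on 3, Foxd3 and Foxe3 on 2, Foxl1 on 1), or 13.6%, against 3.99% of all genes. Another 4 were above background on AER arrays alone (Foxq1 on 2, and Foxd4, Foxj1 and Foxr1 on 1 each), or 9.09%, against 5.65% of all genes. Foxi1 and Foxh1 were above background on some arrays of both groups. The grid of detection calls shows that Foxd2 was the one forkhead gene read on every array of 1 group and on no array of the other.

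The comparison asked which forkhead genes set the ridge apart from the surface ectoderm as dissected. Foxd2 differed most, with signal on all ectoderm arrays and none above background in AER. Foxc1 was 3.45-fold lower in AER, and Foxf2, at background there, was at least 2.60-fold lower. Foxp1 and Foxi1 were about 2-fold lower in the main fit, and Foxo6 and Foxs1 were lower by less. For Foxi1, close to the limit of detection, another background correction gave a difference of -0.39, which was not called. Foxk1 was the single forkhead gene past the threshold in the other direction, at 1.58-fold higher in AER. Foxm1, Foxj3 and Foxk2 had differences near 0.

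A probe entered the test when 3 or more of the 7 arrays called it above background, and a gene was represented by its probe of highest mean. This left 20 forkhead genes tested and 24 untested, so 45.5% were tested against 57.2% of all genes. Of the 20, 8 passed an adjusted p of 0.05 (limma's moderated test, Benjamini-Hochberg over 20823 genes), against 15.7% of all genes tested. One was higher in AER, where 7.03% of all genes were, and 7 were lower, where 8.65% of all genes were. Over all genes, 44.8% of the calls were higher in AER. Scaling on detected probes alone made that 57.4%, with 1 forkhead gene called higher and 4 lower. Foxd2, Foxf2, Foxc1 and Foxi1 kept their call in each of the 7 fits that left out 1 array, and when ectoderm replicates 2 and 4, the pair that shares a number in its file names, were averaged; Foxp1, Foxo6, Foxs1 and Foxk1 did not. Foxd2, Foxf2 and Foxp2 passed the filter through the ectoderm arrays alone, so their difference is in part fixed by the filter. Of the 17 tested genes read on at least 1 array of each group, 1 was higher (6.41% of all such genes), 5 were lower (7.67%) and 11 were not called, against 14.1% of all such genes called in either direction. The median difference of the tested forkhead genes was -0.44, beside -0.08 for all genes tested, and 14 of the 20 differences were below 0. For scale, 22099 probes at background on all arrays had a median difference of -0.19. Of these probes 5% lay below -0.70 and 95% below 0.57, and the called differences of Foxo6 and Foxs1 lie within that range. Unlike those probes, Foxo6 and Foxs1 were above background on all 7 arrays.

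**Figure D2:**
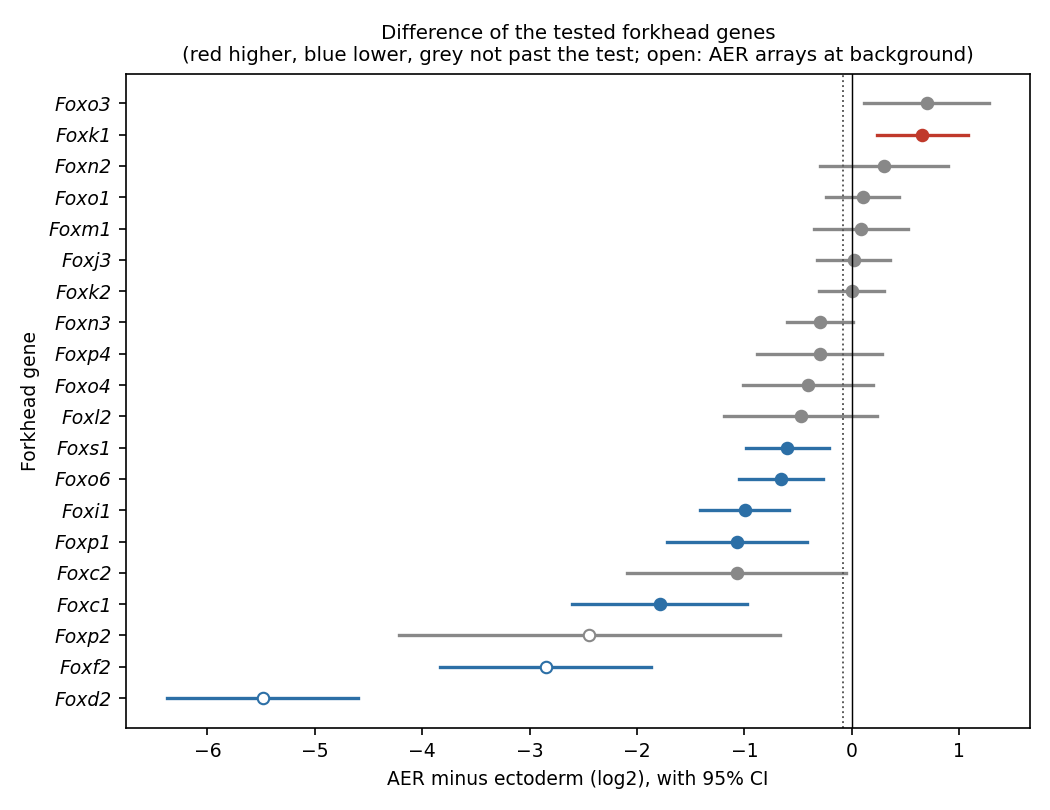
Difference between AER and ectoderm for the 20 tested forkhead genes, on the log2 scale, with its 95% confidence interval from the fit. Points right of the solid line at 0 are higher in AER, the dotted line marks the median of all genes tested (-0.08), and open points have all 3 AER arrays at background. The points run from -5.48 for Foxd2 to 0.70 for Foxo3, and Foxk1 is the one called higher.

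For 9 of the 20 genes the 2 groups of arrays were fully apart, as for 30.3% of all genes tested. AER was the higher group for Foxo3 and Foxk1 (12.5% of all genes) and the lower group for Foxn3, Foxs1, Foxo6, Foxi1, Foxc1, Foxf2 and Foxd2 (17.8% of all genes). Foxp1 was called although its arrays overlapped, and Foxo3 and Foxn3 did not overlap but were not called.

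Foxd2 encodes a member of the FOXD subfamily, known from kidney stroma and from head and limb mesenchyme. Its level was -5.58, -6.47 and -5.76 on the AER arrays, none of them above background. On the ectoderm arrays it was 0.61, -0.91, -0.83 and -0.68. Every ectoderm array thus lay far above every AER array, with ectoderm replicate 1 the highest. The fitted difference, from 3 AER and 4 ectoderm arrays, was -5.48 (SE 0.39, 95% CI -6.37 to -4.59; limma's adjusted p = 5.29e-05). Foxd2 passed the filter through the ectoderm arrays alone and its AER values were at background, so these fitted values are descriptive. Because AER was at background, the fold is given as a lower bound, with each AER array set to the dimmest signal called above background on it, or to the probe's own signal where higher. On that basis Foxd2 was at least 15.5-fold lower in AER. The normexp background correction, which raises dim signals, gave a difference of -2.35, outside the interval above, with limma's adjusted p = 0.000131. The probe lies at chr4:114578944-114579003 (mm9, the build of the array design); the exon or untranslated region under it was not looked up.

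Foxd2 has a neighbour, Foxd2os, a transcript named for the opposite strand of the Foxd2 locus and chosen for mention after its values were seen. Foxd2os stood at -4.87, -5.75 and -5.73 on the AER arrays, all at background, and at -2.0, -3.21, -3.32 and -2.97 on the ectoderm arrays, all above it. It was at least 2.90-fold lower in AER, a difference of -2.57. Like Foxd2, it passed the filter through the ectoderm arrays alone, so this is given as a description with no test. Its 4 ectoderm values followed those of Foxd2 in that replicate 1 was the highest. Foxe3, a lens factor whose probe lies 18.7 kb from that of Foxd2, was above background on ectoderm replicates 1 and 3 alone, at -3.44 and -3.13, and was not tested.

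Foxf2 encodes an activator of the FOXF subfamily that acts in mesenchyme next to epithelia, as in the gut and palate, and is a known responder to Hedgehog signals. It stood at -5.19, -6.04 and -6.40 on the AER arrays, all at background. The ectoderm levels were -1.94, -3.29, -3.65 and -3.24, of which the one on replicate 3 was not above background. The groups did not overlap, and replicate 1 was again the highest ectoderm array. The difference was -2.85 (SE 0.43; adjusted p = 0.00250, limma), and Foxf2 was at least 2.60-fold lower in AER. Like Foxd2, it passed the filter through the ectoderm arrays alone, so the fitted values are descriptive. With normexp the difference was -0.98 and was still called (limma's adjusted p = 0.00654). Its probe lies at chr13:31723139-31723198 (mm9).

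Foxc1 encodes an activator needed in the mesenchyme of the skull, eye, heart and somites. Its level was -2.0, -2.24 and -2.19 in AER and -1.37, 0.33, -0.36 and -0.03 in ectoderm, all above background. The AER arrays lay close together (SD 0.13), whereas ectoderm replicate 1 stood below the other ectoderm arrays (SD 0.73) but above every AER array. Foxc1 was 3.45-fold lower in AER (95% CI 1.96 to 6.08; difference -1.79, SE 0.36; adjusted p = 0.0105, limma). Leaving out ectoderm replicate 1 gave a difference of -2.13. The Foxc1 probe lies at chr13:31902423-31902482 (mm9). Ectoderm replicate 1 was thus the highest of its group for Foxd2 and Foxf2 and the lowest for Foxc1.

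Foxf2 and Foxc1 belong to a run of linked forkhead genes on chromosome 13, together with Foxq1, and their probes lie 179 kb apart. The promoters of the 3 genes with the largest called differences are printed so that their base composition can be seen: 250 bases before the annotated start, from RefSeq on the GRCm38.p6 assembly, 5′ to 3′ along the gene, with each CpG in capitals. Foxd2 is on the minus strand at chr4:114908899-114909148, Foxf2 on the plus strand at chr13:31625566-31625815 and Foxc1 on the plus strand at chr13:31806396-31806645.
Foxd2: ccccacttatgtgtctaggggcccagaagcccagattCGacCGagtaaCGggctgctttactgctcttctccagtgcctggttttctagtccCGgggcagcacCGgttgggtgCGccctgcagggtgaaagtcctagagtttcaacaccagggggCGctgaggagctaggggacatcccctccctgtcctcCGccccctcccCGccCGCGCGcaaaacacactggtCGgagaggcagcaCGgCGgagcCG
Foxf2: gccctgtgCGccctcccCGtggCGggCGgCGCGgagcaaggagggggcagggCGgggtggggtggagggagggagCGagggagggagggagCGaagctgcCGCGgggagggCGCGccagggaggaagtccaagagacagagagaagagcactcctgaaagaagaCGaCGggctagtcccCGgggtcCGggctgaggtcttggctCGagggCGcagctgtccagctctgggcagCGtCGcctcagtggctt
Foxc1: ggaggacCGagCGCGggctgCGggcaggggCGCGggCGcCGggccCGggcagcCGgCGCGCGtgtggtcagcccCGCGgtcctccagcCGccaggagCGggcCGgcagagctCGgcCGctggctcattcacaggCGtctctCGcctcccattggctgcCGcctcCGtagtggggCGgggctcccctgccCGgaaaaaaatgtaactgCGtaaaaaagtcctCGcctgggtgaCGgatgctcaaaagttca
These windows hold 16, 21 and 29 CpG dinucleotides and are 64.4%, 71.6% and 70.8% G and C. RefSeq promoters were matched for 28 of the 44 forkhead genes, 33 promoters in all, with a median of 16 CpGs and 62% G and C, beside 6 CpGs and 52.4% over all 32851 promoters in the table. The forkhead core TGTTTAC, searched on both strands (GTAAACA), was found in 1040 of all promoters (3.17%) and in 1 of the 33 forkhead promoters, that of Foxa1. The windows of Foxd2, Foxf2 and Foxc1 do not hold it, which says only that these letters are not in these windows.

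**Figure D3:**
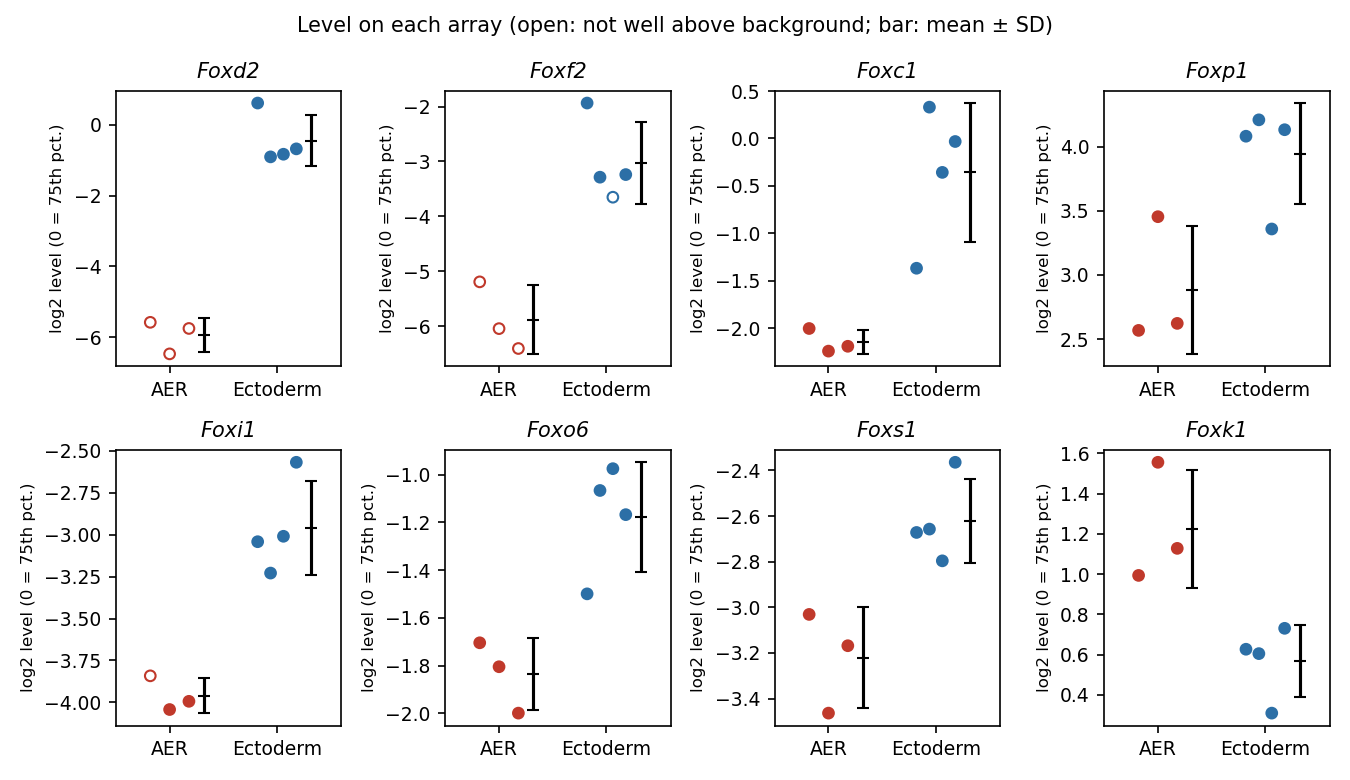
Level of the 8 forkhead genes past the threshold on each array, on the log2 scale where 0 is the array's 75th percentile, with AER in red and ectoderm in blue; each panel has its own scale. Points are arrays in replicate order from left to right, open points are not well above background, and the bars give the mean ± SD of 3 or 4 arrays. Foxd2 shows the widest gap, all 3 AER points at or below -5.58 and all 4 ectoderm points at or above -0.91, and Foxp1 is the panel in which the groups overlap.

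The other genes of the linked sets could be read less well. On chromosome 13, Foxq1, a factor of hair and stomach epithelium whose probe is 70.9 kb from that of Foxf2, went the other way from its neighbours in detection. It was above background on AER replicates 2 and 3, at -3.58 and -3.51, and stood at -3.53 on replicate 1 without passing the flag. All ectoderm arrays were at background, between -5.08 and -3.87. The mean bound was at least 1.29-fold higher in AER, but the gene was above background on 2 arrays and was not tested.

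On chromosome 8, Foxc2, Foxf1 and Foxl1 lie within 43.7 kb of one another. Foxc2, a close relative of Foxc1 with roles in lymphatic vessels and axial mesenchyme, stood at -2.20, -3.65 and -2.24 in AER and at -1.09, -2.12, -1.01 and -2.27 in ectoderm. The groups overlapped, since AER replicates 1 and 3 lay just above ectoderm replicate 4, and the difference of -1.07 was not called (95% CI -2.09 to -0.05; adjusted p = 0.146, limma). Foxf1, the other FOXF gene, was at background on every array, and Foxl1, a factor of gut mesenchyme, was above background on ectoderm replicate 1 alone, at -2.87. Of 9 other genes listed as neighbours of these sets, 6 were tested. Gmds, an enzyme of GDP-fucose synthesis, was lower in AER (difference -0.98, adjusted p = 0.00777, limma), and the other 5 were not called. Over all genes tested, 15.7% were called. Fendrr, a noncoding RNA beside Foxf1, was above background on ectoderm replicate 2 alone.

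Foxd3, a neural crest factor and relative of Foxd2, was above background on ectoderm replicates 2 and 4, at -2.21 and -2.45. The other 5 arrays were at background, with the other ectoderm arrays at -5.11 and -4.67, so it was not tested. In the list of neural, Schwann and melanoblast genes, 2 of 8 tested were higher and 1 lower in AER, against 7.03% and 8.65% of all genes.

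The FOXP genes encode repressors that bind DNA as dimers and recruit CtBP and NuRD corepressors; Foxp1 is known from heart, lung and limb motor neurons and Foxp2 from brain and lung. Foxp1 stood at 2.57, 3.45 and 2.62 in AER and at 4.08, 4.21, 3.36 and 4.13 in ectoderm. AER replicate 2 was the highest of its group and ectoderm replicate 3 the lowest of its own, and these arrays overlapped. Foxp1 was 2.09-fold lower in AER (95% CI 1.33 to 3.29; difference -1.06, SE 0.29; adjusted p = 0.0380, limma). The call did not hold with normexp (limma's adjusted p = 0.0710), and it held in 2 of the 7 fits that left out 1 array. Dropping AER replicate 1 or 3 ended it (limma's adjusted p = 0.104 and 0.107), as did dropping ectoderm replicate 1, 2 or 4 (0.0859, 0.0989 and 0.101).

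Foxp1 had 5 probes, and they did not move alike. The brightest probe, at chr6:98880084-98880143 (mm9), gave the difference above. A probe of the same RefSeq transcript, NM_053202, whose coordinates run from 98885382 to 98889719 and so span a gap, gave -1.10 (95% CI -1.79 to -0.41; adjusted p over all probes = 0.0424, limma). At higher coordinates, toward the 5′ end of this minus-strand gene, the probe at chr6:98956679-98956738, designed to a separate cDNA, gave -0.18 (95% CI -0.61 to 0.24). The probe at chr6:99112925-99112984, for transcript NM_001197321, gave -0.32 (95% CI -0.73 to 0.09), and the last probe was at background on every array. Whether the probes differ from one another was not tested.

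Foxp2 was at background on all AER arrays, at -5.34, -6.19 and -6.48. It was above background on ectoderm replicates 1, 2 and 4, at -2.32, -2.81 and -3.15, but not on replicate 3, at -5.93. The groups overlapped through that array, and the difference of -2.45 was not called (95% CI -4.22 to -0.67; adjusted p = 0.0691, limma), with a bound of at least 1.81-fold. Leaving out ectoderm replicate 3 gave -3.24 and an adjusted p of 0.000465, and leaving out any other array gave no call (0.0867 to 0.166, limma). Foxp2 passed the filter through ectoderm replicates 1, 2 and 4 alone, so its fitted values are descriptive. The fit without replicate 3 kept only the ectoderm arrays through which Foxp2 passed. Its 2 other probes were above background on 1 array each. Foxp3 was at background throughout.

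Foxp4 showed how the choice of probe mattered. The probe that represents it gave a difference of -0.30, not called (95% CI -0.88 to 0.28; adjusted p = 0.454, limma). A second probe that shares 54 of its bases gave -0.81 and was called over all probes (95% CI -1.25 to -0.37; adjusted p = 0.0240, limma), and the other gave -0.69 (adjusted p = 0.0738, limma). The first 30 bases of the overlapping pair, at chr17:48004719-48004778 and chr17:48004713-48004772 (mm9), are shown with the run common to both stretches in capitals, because 2 nearly identical sequences gave different calls.
Foxp4 representing probe: tccttcCCTCTCCCAGTTAAAACGGATGAC
Foxp4 second probe: CCTCTCCCAGTTAAAACGGATGACcaaaga
The representing probe read 3.20, 3.66 and 2.63 in AER and 3.12, 3.58, 3.45 and 3.69 in ectoderm. The second read 2.45, 2.77 and 2.55 in AER and 3.00, 3.63, 3.38 and 3.59 in ectoderm. On the ectoderm arrays the pair lay within 0.12 of each other, and on AER replicates 1 and 2 the representing probe was higher by 0.75 and 0.89. Those are the arrays on which repeat spots of a probe varied most, with a typical SD between spots of 0.226 and 0.219 against 0.079 to 0.092 on the other arrays; the part of spot noise in the Foxp4 values was not tested. On AER replicate 3, whose spots varied least, the pair read 2.63 and 2.55.

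Of the 13 corepressor genes listed with the FOXP proteins (CtBP and NuRD subunits), all 13 were tested, with a median difference of -0.01. None was called, where 15.7% of all genes tested were.

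**Figure D4:**
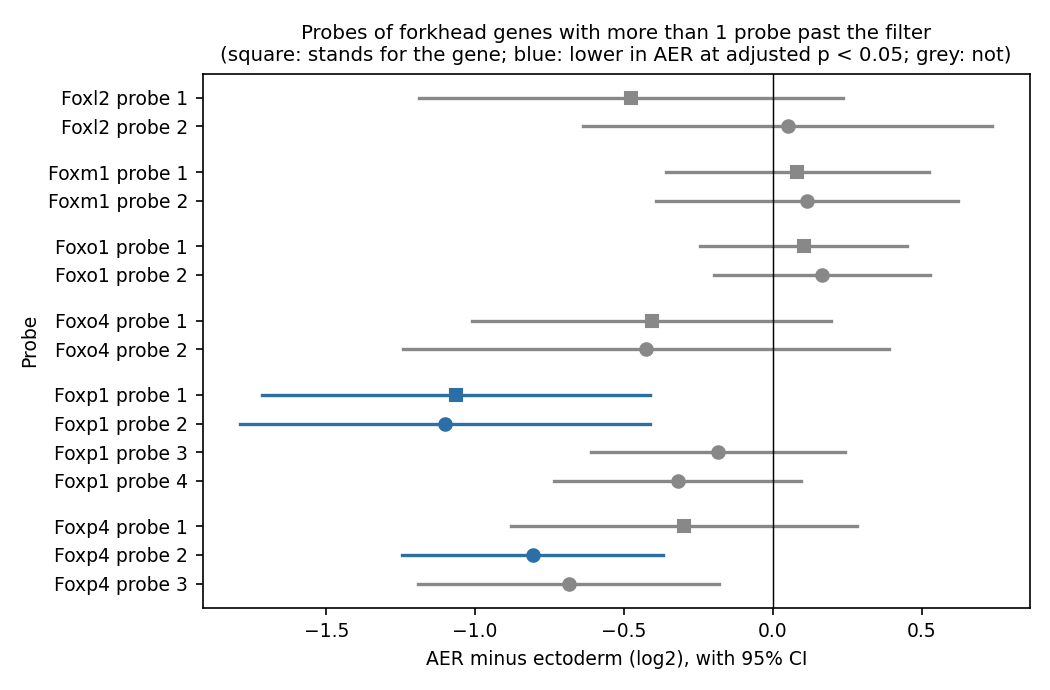
Difference between AER and ectoderm, with its 95% confidence interval, for each probe of the 6 forkhead genes that had more than 1 tested probe; squares are the probes that represent the gene, and blue marks an adjusted p under 0.05 over all probes. The upper Foxp1 pair lies near -1.1 and the lower pair near -0.2, and of the 3 Foxp4 probes the second alone is called.

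Over all forkhead probes, 29 of 60 were tested, 1 was higher and 8 were lower in AER at an adjusted p of 0.05 (limma), where 15% of all 28276 tested probes were called (6.97% higher and 8.02% lower). The pairs of probes of Foxm1, Foxo1 and Foxo4 had the same sign within each gene and were not called. The Foxo4 pair shares 52 bases and gave -0.41 and -0.42.

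Foxl2, known from the ovary and eyelid, had 2 probes of opposite sign, neither called. The representing probe gave -0.48 (95% CI -1.19 to 0.24) and the other 0.05 (95% CI -0.64 to 0.74). The processed signal of the representing probe was 10430 to 17723 units, and that of the other was 43.7 to 62.8 units. Both are designed to the same transcript, but their longest shared run is 12 bases. Whether the representing probe reads Foxl2 alone was not tested.

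Foxi1 encodes an activator of ion transport genes in inner ear, kidney and airway ionocytes. It stood at -3.84, -4.04 and -3.99 in AER, with replicate 1 not above background, and at -3.04, -3.23, -3.01 and -2.57 in ectoderm. All AER arrays lay below all ectoderm arrays, close to the limit of detection. Foxi1 was 1.99-fold lower in AER (95% CI 1.5 to 2.66; difference -0.996, SE 0.18; adjusted p = 0.00675, limma). The call held in each of the 7 fits that left out 1 array, but with normexp the difference was -0.39 and was not called (adjusted p = 0.163), and the authors' deposited values gave -0.29 (adjusted p = 0.126). Foxi2 and Foxi3, the latter an early marker of hair and tooth placodes and a target of ectodysplasin signalling, were at background on all arrays.

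The ectodysplasin pathway, which acts in ectodermal appendage placodes upstream of Foxi3, was described from a list of 17 genes. Of 16 tested, 3 were higher and 1 was lower in AER, against 7.03% and 8.65% of all genes, with a median difference of 0.11. Edar, the receptor, was at background on all ectoderm arrays and at least 4.09-fold higher in AER (difference 4.20, adjusted p = 1.34e-05, limma), but it passed the filter through the AER arrays alone. Its adaptor Edaradd (difference 1.16) and the related receptor Tnfrsf19 (0.93) were higher too, and the ligand Eda was lower (-1.35; adjusted p = 0.00442, limma).

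Hedgehog signalling, to which FOXF genes respond in several mesenchymes, was described from 14 genes, of which 13 were tested. None was higher (7.03% of all genes) and 5 were lower in AER (8.65% of all genes), with a median difference of -0.19, beside -0.08 for all genes. Hhip, a Hedgehog-binding inhibitor and target, differed by -3.25 (adjusted p = 0.000661, limma) and was above background on 1 of 3 AER arrays. The effector Gli2 (-1.70) and the coreceptors Boc (-1.73), Cdon (-1.45) and Gas1 (-1.19) were also lower. The ligand Shh (3.61, adjusted p = 0.0831) and the target genes Ptch1 (0.69, adjusted p = 0.356) and Gli1 (-0.01, adjusted p = 0.991, all limma) were not called. Of the 20 limb mesenchyme genes, 15 were lower in AER on these arrays and 5 were not called. Fewer mesenchymal cells and less RNA per cell cannot be told apart in such pools.

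**Figure D5:**
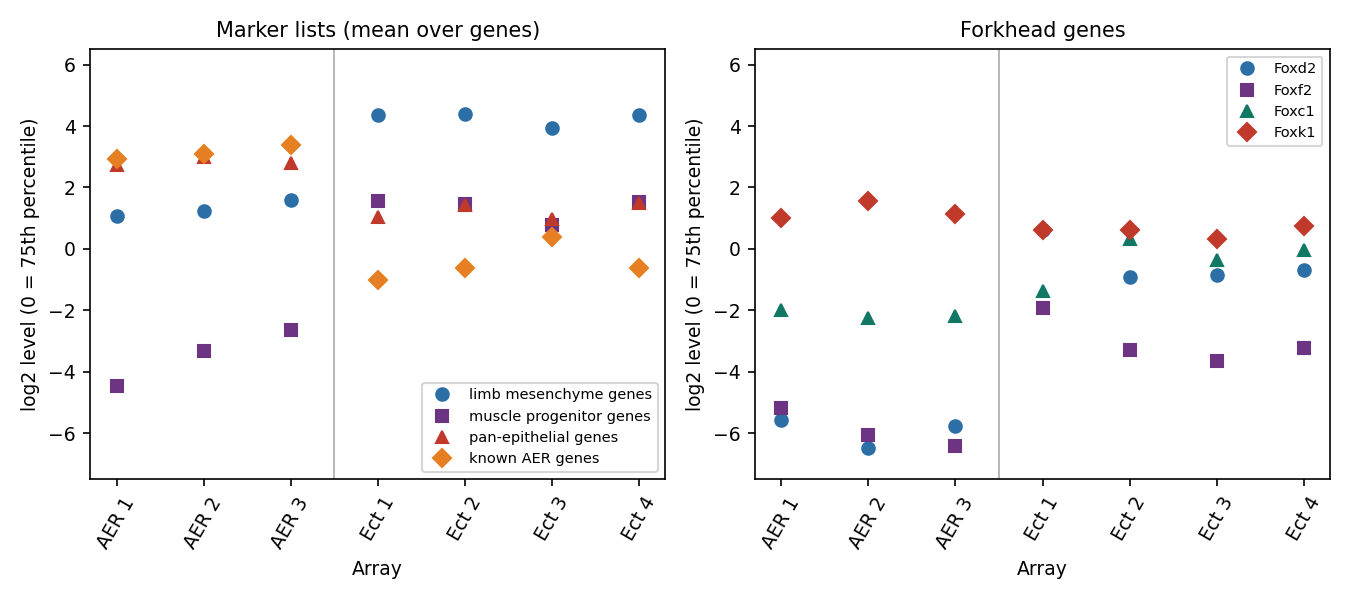
Mean level of 4 marker lists on each array (left) and level of 4 forkhead genes (right), on the log2 scale where 0 is the array's 75th percentile. The limb mesenchyme list spans 1.07 to 1.6 in AER and 3.93 to 4.40 in ectoderm, and the muscle list is at -2.65 or lower on each AER array; Foxd2, Foxf2 and Foxc1 are likewise lower on each AER array than on any ectoderm array, and Foxk1 is higher.

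Within the ectoderm group, replicate 3 had the lowest mean of the mesenchyme list (3.93, where the other 3 arrays were at 4.36 to 4.40) and of the muscle list (0.78, where they were at 1.48 to 1.56). It had the highest mean of the AER list (0.37, where they were at -1.02 to -0.61). Of the 8 called forkhead genes, Foxf2, Foxp1, Foxs1 and Foxk1 were lowest of their group on that array, as was Foxp2, and Foxd2, Foxc1, Foxi1 and Foxo6 were not. Of 10 endothelial genes 1 was called, and of 8 erythroid and 6 macrophage genes none was called, against 15.7% of all genes tested. Of 7 cartilage and tendon genes 2 were lower in AER, against 8.65% of all genes. They were Scx (-4.62) and Sox9 (-2.66), both called by limma.

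The FOXO proteins, which insulin and growth factor signals exclude from the nucleus through AKT, act on genes of the cell cycle, atrophy and stress resistance. Foxo6, a member known from the brain, stood at -1.70, -1.80 and -2.0 in AER and at -1.50, -1.07, -0.98 and -1.17 in ectoderm. The groups did not overlap, and the nearest arrays, AER replicate 1 and ectoderm replicate 1, were 0.20 apart. Foxo6 was 1.58-fold lower in AER (95% CI 1.20 to 2.07; difference -0.66, SE 0.17; adjusted p = 0.0338, limma). The call held without ectoderm replicate 1 (limma's adjusted p = 0.0246) and was lost without each other array in turn (0.0502 to 0.0964), and its second probe was at background on every array.

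Foxo3 pointed the other way, at -0.80, -1.42 and -1.52 in AER against -2.45, -1.88, -1.89 and -1.56 in ectoderm. AER replicate 3 and ectoderm replicate 4 nearly met, and the difference of 0.70 was not called (95% CI 0.12 to 1.28; adjusted p = 0.102, limma). This Foxo3 probe was designed to a cDNA. The other Foxo3 probe, designed to a RefSeq transcript, was above background on AER replicate 2 alone. Foxo1 differed by 0.10 (95% CI -0.24 to 0.44) and Foxo4 by -0.41 (95% CI -1.01 to 0.20), and neither was called.

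Among 21 genes of the PI3K-AKT route to FOXO proteins, all tested, 2 were higher and 1 was lower in AER, with a median difference of -0.02, where 7.03% of all genes were higher and 8.65% lower. Pik3r1, the regulatory subunit of PI3-kinase, was higher by 1.32 (adjusted p = 0.00127, limma) and Irs1, an insulin receptor adaptor, by 0.68 (adjusted p = 0.0466). Sgk1, a kinase that phosphorylates FOXO proteins, differed by -1.60 (limma's adjusted p = 0.0193). Of 20 FOXO target genes, 3 were higher and 1 was lower (7.03% and 8.65% of all genes), with a median of 0.09. Pik3ip1, an inhibitor of PI3-kinase, was higher by 2.88 (adjusted p = 5.95e-05), Fbxo32, a ubiquitin ligase of muscle atrophy, by 1.07, and Txnip, an inhibitor of glucose uptake, by 0.94, while the stress gene Sesn3 differed by -0.80 (adjusted p = 0.0147, all limma). In both lists, as over all genes, most members were not called.

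Foxk1 encodes a repressor of autophagy genes that also acts in muscle progenitors. It stood at 0.99, 1.56 and 1.13 in AER and at 0.63, 0.60, 0.31 and 0.73 in ectoderm, with every AER array above every ectoderm array. Foxk1 was 1.58-fold higher in AER (95% CI 1.18 to 2.11; difference 0.66, SE 0.18; adjusted p = 0.0448, limma). Without AER replicate 1 the call held (limma's adjusted p = 0.0428), and it was lost when any other array was dropped (0.0696 to 0.0990). All 9 tested muscle markers were lower in AER, and the part of muscle cells in the Foxk1 difference was not tested. The close relative Foxk2 ranged from 2.63 to 2.68 in AER and from 2.54 to 2.74 in ectoderm, a difference of -0.0017 with a 95% CI from -0.30 to 0.30.

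Foxs1, a factor of sensory neurons and of cells on small vessels, stood at -3.03, -3.46 and -3.17 in AER and at -2.67, -2.66, -2.80 and -2.36 in ectoderm. The groups did not overlap. Foxs1 was 1.51-fold lower in AER (95% CI 1.16 to 1.98; difference -0.60, SE 0.17; adjusted p = 0.0474, limma). This call was lost in each of the 7 fits that left out 1 array (limma's adjusted p 0.050045 to 0.136) and with normexp (0.332).

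Foxm1, the activator of mitotic genes, gave 2 probes with differences of 0.08 (95% CI -0.36 to 0.52) and 0.12, neither called. Of the 24 genes listed with it, mitotic targets and subunits of the MuvB complex, 23 were tested, with a median difference of -0.01. Of these 1 was called, where 15.7% of all genes tested were. That gene was Lin37, a MuvB subunit (difference -0.67, adjusted p = 0.0451, limma).

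Foxj1, the master factor of motile cilia, was above background on AER replicate 2 alone, and 8 of 20 genes listed for motile cilia were tested, of which 3 were called, where 15.7% of all genes were. Dnaic1, a dynein chain, was higher in AER (1.13), and Tekt1 (-0.95) and Rsph9 (-1.02), parts of the axoneme, were lower, with adjusted p of 0.00142, 0.00432 and 0.0161 (limma). Foxj3, a relative expressed in many tissues, stood at 4.36, 4.01 and 4.05 in AER and at 4.11, 4.23, 4.14 and 4.02 in ectoderm, a difference of 0.02 (95% CI -0.32 to 0.36).

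Foxn3, a checkpoint repressor, stood at 1.15, 1.25 and 1.30 in AER and at 1.5, 1.63, 1.58 and 1.40 in ectoderm. The groups did not overlap, but the difference of -0.30 was small and was not called (95% CI -0.61 to 0.01; adjusted p = 0.181, limma). With normexp it was -0.64 (adjusted p = 0.0392), and the authors' deposited values gave -0.62 (adjusted p = 0.0414). Foxn2 differed by 0.30 (95% CI -0.29 to 0.90) and was not called.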

How the data were processed

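Total RNA from 3 AER and 4 ectoderm pools was hybridised to 1-colour (Cy3) Agilent arrays. The deposited scanner files hold the processed signal as an intensity, background-subtracted and detrended within each array by Agilent Feature Extraction 10.7.3.1, per the file headers, without scaling between arrays. Flags per spot (well above background, saturated, outlying) come from the same deposited files. The authors also gave a table of log2 values; the submitters' processing notes name limma without a version or step, and on the files, quantile normalization after a normexp correction (offset 50) gave those values to within 0.000108. Every array sat on 1 slide with 1 scan time.

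From the scanner files, control and outlier spots were left out, spots of a probe were averaged, and the array's 75th percentile was subtracted from the log2 signal. Of 55681 probes, 28276 (50.8%) passed the filter on dim signal. Probes were named through the RefSeq table (26300 by accession, 2044 by symbol and 355 by an older symbol) and otherwise as in the file. The group comparison used lmFit and eBayes of limma 3.58.1 (two-sided, 5 residual and 3.50 prior degrees of freedom) under R 4.3.3 (data.table, version 1.17.8), with Benjamini-Hochberg adjustment over all genes or all probes at 0.05. The fit was tested on simulated data. Tables and plots used Python 3.11.15, pandas 2.3.3, numpy 2.4.6 and matplotlib 3.10.9. The number of arrays limits the precision.

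The forkhead members and the gene lists were chosen with earlier results of these data known. Every forkhead gene could be named, and by rule array values are given for those past the threshold and those read on all arrays of 1 group and none of the other; further array values were chosen after they were seen. Of each pathway list, up to 4 called genes of smallest p are named, or all where the count is 5 or fewer. Of the cell type lists only Kera, Osr2, Des, Scx and Sox9 are named, and their other called genes are not. Forkhead proteins were not analysed here, and 1 gene that the rule takes and 1 probe's sequence are not reported here. Deviations of same-numbered AER and ectoderm arrays correlated across genes at r = -0.03, 0.19 and 0.13, and those of differently numbered arrays at -0.26 to 0.18. These values do not settle whether the numbers pair the arrays, and the main fit used no pairing.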

Additional observations from a re-analysis of the deposited data

Results flagged for a closer look

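A gap test on the 4 ectoderm arrays (Dixon's ratio of the gap between an end array and its neighbour to the whole range, limit 0.829) was made for each of the 20 tested forkhead genes, and 2 groups passed the limit, where chance flags about 1 in 20. For Foxd2 the ratio was 0.851, with ectoderm replicate 1 at 0.61 and the other 3 arrays at -0.91 to -0.68. Without that array the difference between AER and ectoderm was -5.13 (adjusted p = 5.99e-05, limma). This fit is descriptive, since Foxd2 passed the filter through the ectoderm arrays alone. For Foxp1 the ratio was 0.850, with ectoderm replicate 3 at 3.36 and the other 3 at 4.08 to 4.21; without that array the difference was -1.26 (adjusted p = 0.0139, limma). The AER group, with 3 arrays, was not examined this way.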

How the results depend on the processing

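Of 20 alternatives, all called Foxd2 (difference -5.66 to -2.26). The authors' values and normexp with quantile normalization are in effect 1 analysis counted as 2. Foxd2 and Foxf2 passed the main filter through the ectoderm arrays alone, so their counts of calls are descriptive. Foxf2 has 19 alternatives, because the filter that asks for all arrays of 1 group left it out. Foxc1 was called in 19, missing with slide row 1 alone (adjusted p = 0.282, limma); Foxf2 in 18 of 19, missing there too (0.173); Foxi1 in 15, Foxp1 and Foxk1 in 7, Foxo6 in 6 and Foxs1 in 3. None of these 8 changed sign, while Foxj3, Foxk2 and Foxm1, all near 0, did under some alternatives. The main count was 8 forkhead genes, 1 higher and 7 lower, among 3264 genes. It was 5 (4 lower) with scaling on the probes that every array detected, where 57.4% of all called genes were higher against 44.8% (the median of all genes moved from -0.08 to 0.02, and to 0.04 with quantile normalization); 5 with the slide row as a block, none (0) higher; 4 when ectoderm replicates 2 and 4, which carry 1 number in their file names, were averaged, 0 higher and 4 lower; and 0 higher with array weights or with no filter on dim probes. Without that filter Foxa1 and Foxa3, at background on every array, were called lower. Slide row 1 alone (1 AER array against 3) gave 1 forkhead gene, 0 higher and 1 lower, among 650 genes, and row 2 alone (2 against 1) gave 4, 0 higher and 4 lower, among 1388; a lone array is assumed to vary like the others. Leaving out 1 array in turn gave 4 to 6 forkhead genes, 0 to 1 higher and 4 to 6 lower. The median forkhead difference ran from -0.61 to -0.21. The causes of these changes were not tested.

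With the replicate number as a block, 7 forkhead genes were called, 0 higher and 7 lower, among 2441 genes. Whether the numbers pair the arrays was not settled. Foxc2 (-1.29, adjusted p = 0.00633, limma) and Foxp2 (-2.31, 0.0194) were then called. For Foxp2, which passed the filter through the ectoderm arrays alone, this is descriptive. Foxk1, Foxo6 and Foxs1 were not called (0.0882, 0.135 and 0.197), and ectoderm replicate 4 stood alone in its block.

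Probes at background bound the signal only. Foxi1, Foxf2 and Foxs1 lay near the detection limit, and 7 arrays leave small differences unresolved.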
